A study of Mus musculus with 10 samples.

Results

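The receptors for interleukin-3 (IL-3) share a signalling beta chain. In the mouse this chain comes in 2 forms, made by a pair of neighbouring paralogous genes. Csf2rb encodes the common beta chain, which serves IL-3, IL-5 and GM-CSF, and Csf2rb2 encodes a beta chain that serves IL-3 alone. The beta chains bind JAK2 and pass the signal to STAT5, and mast cells in culture depend on IL-3. Their neighbour Ncf4 encodes p40phox, a cytosolic subunit of the phagocyte NADPH oxidase.

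The results below describe the peaks of histone H3 lysine 27 acetylation (H3K27ac) and histone H3 lysine 4 monomethylation (H3K4me1) on chromosome 15 from 78060000 to 78210000 of the mm9 build. Of 234627 peaks in the 5 lists together, 200 overlapped this window of 150 kb. The window was chosen by its H3K27ac cover, since it holds the cluster of H3K27ac regions with the longest cover, so its H3K27ac values are a description and were not tested. H3K27ac marks active promoters and enhancers, and H3K4me1 marks enhancers, active or not, and the flanks of promoters.

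The cells were bone marrow-derived mast cells of C57BL/6 mice aged 6 to 8 weeks, grown for 4 weeks in medium with 20 ng/ml IL-3. More than 99% carried the IgE receptor and Kit by flow cytometry, per the labels; marker genes were not examined here. There were 3 H3K27ac immunoprecipitates, 2 H3K4me1 immunoprecipitates and an input for each, 10 samples in all, and the labels name no other genotype and no treatment. Nothing in the labels says that replicates came from separate cultures or animals. Each list was called against its own input from 10457047 to 19513552 immunoprecipitate tags and 9433267 to 19265001 input tags, with another version of the caller for each mark. Mark and caller version cannot be told apart.

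In the order along mm9, Ncf4 lies near 78075000 to 78093000, Csf2rb2 near 78113000 to 78136000 and Csf2rb near 78156000 to 78184000. These spans are approximate, and no gene annotation of mm9 was used. Csf2rb2 is on the minus strand in RefSeq, so its start is at the higher end. Ncf4 and Csf2rb were taken to start at the lower end. The starts of both beta chain genes therefore face each other across 20.0 kb.

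The paralogues are alike in sequence. RefSeq (GRCm38.p6) has a microRNA hairpin of 62 bases inside each, on the minus strand in Csf2rb2 and on the plus strand in Csf2rb. They are shown because they carry the duplication and the opposite strands in a short stretch, with the seeds (bases 2 to 8) of the 5p and 3p arms in capitals. Between them there were 0 mismatches.
Mir7676-1, in Csf2rb2, chr15:78284788-78284849: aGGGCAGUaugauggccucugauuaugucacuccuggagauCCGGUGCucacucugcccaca
Mir7676-2, in Csf2rb, chr15:78348599-78348660: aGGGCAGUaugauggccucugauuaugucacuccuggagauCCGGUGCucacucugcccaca
Tag sizes in the 5 lists were 116 to 172 bp, longer than these hairpins, and how far the match extends beyond them was not analysed here. The sources used here do not say how reads that fit both paralogues were placed.

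Of the 3 genes, the promoter table of RefSeq held Csf2rb2. Its 250 bases before and 50 after the start (GRCm38.p6, chr15:78305672-78305971, minus strand) are shown because an H3K27ac region of 10262 bp spans this start. Capitals mark a match to TTCNNNGAA, the letters read by STAT factors.
Csf2rb2 promoter: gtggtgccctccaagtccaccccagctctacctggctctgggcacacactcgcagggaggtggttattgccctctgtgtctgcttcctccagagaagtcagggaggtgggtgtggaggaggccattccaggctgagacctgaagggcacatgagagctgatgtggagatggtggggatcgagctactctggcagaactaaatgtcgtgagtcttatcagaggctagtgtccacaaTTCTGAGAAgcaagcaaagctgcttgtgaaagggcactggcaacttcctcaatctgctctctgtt
The match TTCTGAGAA takes bases 236 to 244 of the 300 shown. Such letters occur in 8.33% of the 32544 promoters of this length in the table, on either strand. GGAA, the core of ETS sites, matched 3 times, each on the other strand, and occurs in 96.0% of promoters. CANNTG, the E-box, matched 1 time and occurs in 72.3%. AGATAA, read by GATA factors, had no match and occurs in 11.2% of promoters. The RUNX letters TGTGGT, in 16.7% of promoters, and the AP-1 letters TGANTCA, in 7.79%, had no match either. No match overlapped another. A match describes the letters only, and binding was not measured.

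Peaks of H3K27ac covered 52.2%, 41.6% and 43.7% of the window in replicates 1, 2 and 3, against 1.19%, 0.990% and 0.891% of the chromosomes. The lists held 35, 31 and 31 peaks here, which covered 78.3, 62.5 and 65.5 kb. Of 17082 other windows of the same length, laid end to end, 1 had more H3K27ac cover in replicate 1, 3 had more in replicate 2 and 0 had more in replicate 3. The same 3 lists chose the window, so its place at or near the top follows from the choice.

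H3K4me1 was not used to choose the window and was also plentiful. It was less extreme than H3K27ac, but H3K27ac cover chose the window, so this difference between the marks is a description only. Its lists held 60 and 43 peaks, which covered 32.8 and 26.7 kb, or 21.9% and 17.8% of the window against 1.33% and 1.33% of the chromosomes. More H3K4me1 cover was found in 34 of the other windows in replicate 1 and in 74 in replicate 2. Relative to the chromosomes as a whole, the H3K4me1 share was 16.5 and 13.4 times as high, and the H3K27ac share 44.9 ± 3.61 times as high (SD, n = 3 lists).

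**Figure D1:**
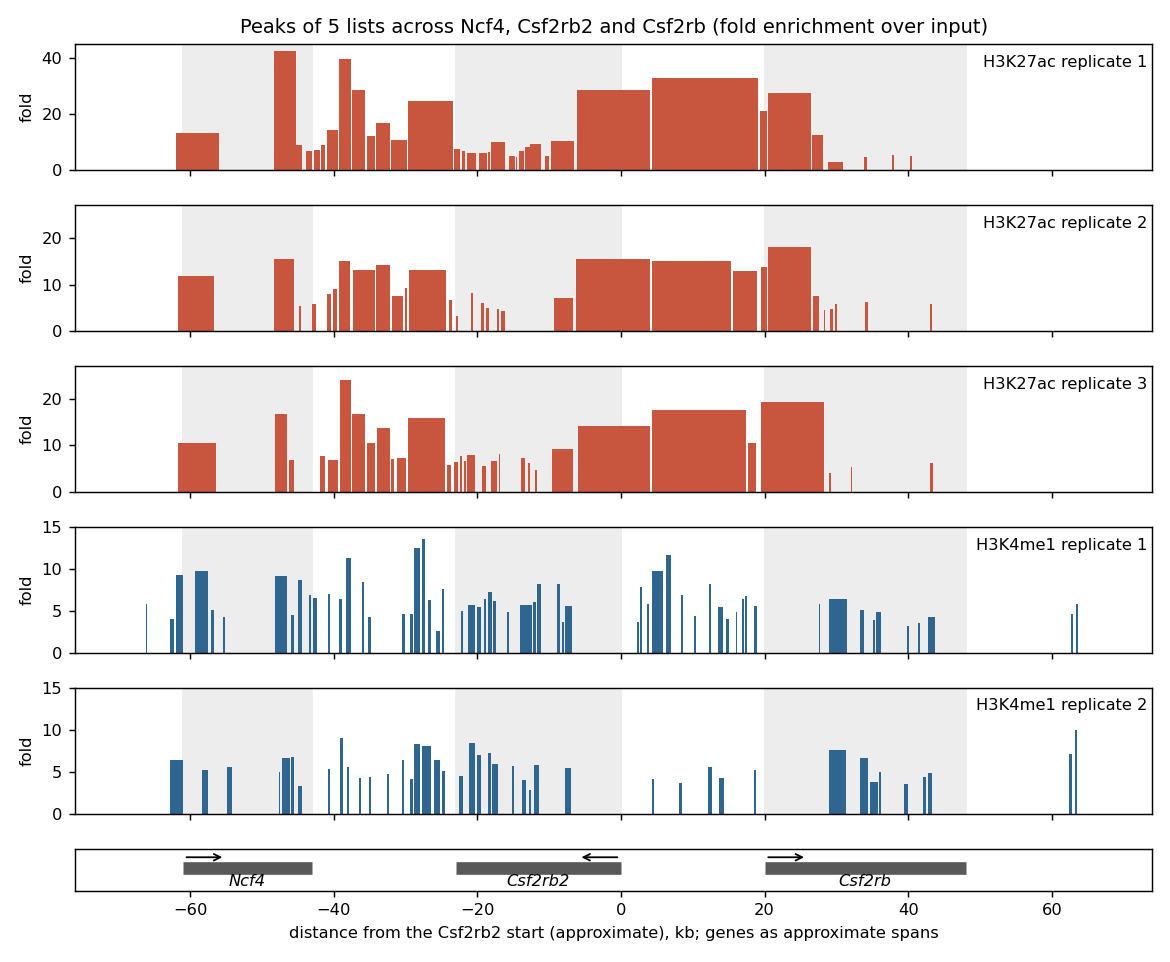
Peaks of each list, drawn from start to end with the fold enrichment at the summit as height, against the distance in kb from the approximate Csf2rb2 start; grey bands and bars are the genes, arrows the direction of transcription, and the fold axes differ in scale. H3K27ac forms a nearly unbroken stretch across both facing starts. H3K4me1 peaks are few at those starts and more frequent between them. In Csf2rb downstream of its start region H3K27ac peaks are few and low. The longest H3K4me1 peaks of the window lie there, 2460 bp in replicate 1 and 2380 bp in replicate 2.

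Peaks of the window recurred between lists more often than all peaks of the list in replicate 2 of each mark. In the other lists they recurred about as often. In H3K27ac replicates 1, 2 and 3, 21 of 35, 24 of 31 and 23 of 31 peaks (60.0%, 77.4% and 74.2%) overlapped a peak in both of the other lists, against 56.5%, 68.5% and 75.7% of all peaks. In H3K4me1 replicates 1 and 2, 39 of 60 (65.0%) and 38 of 43 (88.4%) overlapped a peak of the other list, against 65.0% and 73.8% of all peaks. Agreement in position within the window was measured as the Jaccard index, which divides the bases that 2 lists share by the bases that at least 1 of them covers. It was 0.763 to 0.808 for the 3 H3K27ac pairs, 0.480 for the H3K4me1 pair and 0.185 to 0.313 for the 6 pairs of different marks. The means were 0.711 within a mark and 0.241 between marks. These means and the H3K27ac recurrence are a description without a test, since H3K27ac regions shared by all its lists chose the window.

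Joined regions that all lists of a mark share are called its consensus regions. The window held 18 such regions for H3K27ac, covering 73.3 kb, and 35 for H3K4me1, covering 31.7 kb. The H3K4me1 number was 60 without replicate 2, and 13 when only peaks with minus log10 q of 10 or more were kept. The H3K27ac regions are neighbouring parts of a single cluster and not independent of each other, so no interval is given for their share. Of these, 14 of 18 (77.8%) overlapped an H3K4me1 consensus region, against 40.5% of all 19670. The other 4 overlapped an H3K4me1 peak of 1 list only, and 0 of 18 had no H3K4me1 peak at all. At the limit of 10 the overlap was 6 of 13 (46.2%), against 31.4% of all 11316. Of the H3K4me1 regions, 26 of 35 (74.3%) overlapped H3K27ac consensus, against 24.4% of all 42329. Long regions have more room to overlap, and these were long. By bases, 29.0% of the H3K27ac consensus of the window was also H3K4me1, close to 26.3% over all chromosomes. Of the H3K4me1 consensus bases of the window, 66.9% were also H3K27ac, against 22.3%. The window was chosen by H3K27ac cover, so high H3K27ac shares of H3K4me1 regions and bases follow from the choice and are a description only.

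The 3 longest H3K27ac regions of the window lay at the facing starts of the beta chain genes and between them, and no H3K4me1 consensus region lay in those at the starts. One region spanned the Csf2rb2 start from 78129787 to 78140048, 10262 bp. Next to it the space between the facing starts was filled by a region from 78140281 to 78155040, 14760 bp, the 8th longest of all H3K27ac consensus regions. The third ran from 78155319 to 78164453, 9135 bp, at the Csf2rb start and into that gene. Gaps of 232 and 278 bp separated them.

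Together they made a stretch of 34.7 kb that H3K27ac peaks covered to 96.3%, 93.8% and 95.4% in replicates 1, 2 and 3. This stretch alone held 46.6% of the H3K27ac consensus cover of the window. H3K4me1 peaks covered 17.8% of it in replicate 1 and 5.88% in replicate 2, so the H3K4me1 lists differed here by more than in the window as a whole. All 5 H3K4me1 consensus regions of the stretch lay in the middle region.

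In the region at the Csf2rb2 start, H3K27ac reached 28.7-fold over input in replicate 1, 15.4-fold in replicate 2 and 14.1-fold in replicate 3, from 138, 69 and 77 tags at the summit. H3K4me1 replicate 1 had 3 small peaks in it, at 3.76-, 7.87- and 5.90-fold, and replicate 2 had 0. Those 3 peaks lay at 78138190 to 78139893, on the side that faces Csf2rb, and covered 7.38% of the region. No H3K4me1 consensus region lay between 78129241 and 78140354, a gap of 11114 bp, which reached 6.76 kb into Csf2rb2 and 4.35 kb upstream of its approximate start. Counting every H3K4me1 peak of either list, the gap was still 8949 bp.

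The region at the Csf2rb start had its highest H3K27ac summit at nearly the same base in all lists, at 78156812, 78156828 and 78156846. Fold enrichment there was 27.5, 18.0 and 19.3 in replicates 1, 2 and 3, and 18.0 was the highest value of the window in replicate 2. H3K4me1 had 1 peak in the region, of 203 bp at 5.82-fold in replicate 1, and 0 in replicate 2. The gap in the H3K4me1 consensus ran from 78154961 to 78164933, 9973 bp, reaching 8.93 kb into Csf2rb but only 1.04 kb upstream, and was 8549 bp with every peak counted. H3K27ac consensus filled 92.9% of this gap and 95.5% of that at Csf2rb2.

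Most H3K27ac regions of such length overlapped H3K4me1. Of the 533 H3K27ac consensus regions of at least 5000 bp, 85.7% overlapped H3K4me1 consensus. In the window 3 of 5 did, and the regions at the Csf2rb2 and Csf2rb starts did not. Among all 11699 H3K27ac consensus regions without H3K4me1 consensus, these were the 2nd and the 4th longest. H3K27ac lengths were part of what chose the window, so this order is given without a test. It rests on the gaps of 232 and 278 bp: with peaks joined across 1000 bp, 1 H3K27ac region of 79207 bp ran over both starts and overlapped H3K4me1.

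The middle region, between the facing starts, did carry H3K4me1. H3K27ac reached 32.9-fold in replicate 1 and 17.5-fold in replicate 3, and ranked 189, 1317 and 1252 in the 3 lists. Its summits lay at 78148578 in replicate 1, 78144260 in replicate 2 and 78148610 in replicate 3. The pileup of tags at a summit, ranked within the list, placed the highest peak of the window 8th in H3K27ac replicate 3, where it was this one with 96 tags. H3K4me1 had 11 peaks there in replicate 1, up to 11.7-fold, and 5 in replicate 2, up to 5.64-fold. They covered 35.2% and 13.8% of the region, and its 5 H3K4me1 consensus regions covered 25.1%. The H3K4me1 region from 78148164 to 78148636 contained the H3K27ac summits of replicates 1 and 3.

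At Ncf4 the approximate start, 78075000, lay next to the end of an H3K4me1 consensus region, at 78075015. Whether it falls in that region or in the gap after it cannot be told from an approximate start. In H3K4me1 replicate 1 it lay in the gap, from 78074982, and in replicate 2 inside a peak. An H3K27ac region of 5984 bp ran from 78074048 to 78080031 with summits at 78075609, 78075510 and 78075539, at 13.5-, 11.8- and 10.6-fold. H3K4me1 consensus regions lay on each side of those summits, at 78073154 to 78075015 and at 78076658 to 78078531, with folds of 9.23 and 9.72 in replicate 1 and 6.46 and 5.21 in replicate 2. The gap between them, from 78075016 to 78076657, was 1642 bp, and H3K27ac filled all of it. It held the H3K27ac summits and was shorter than the gaps of 11114 and 9973 bp at the beta chain genes. The lengths were not tested.

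**Figure D2:**
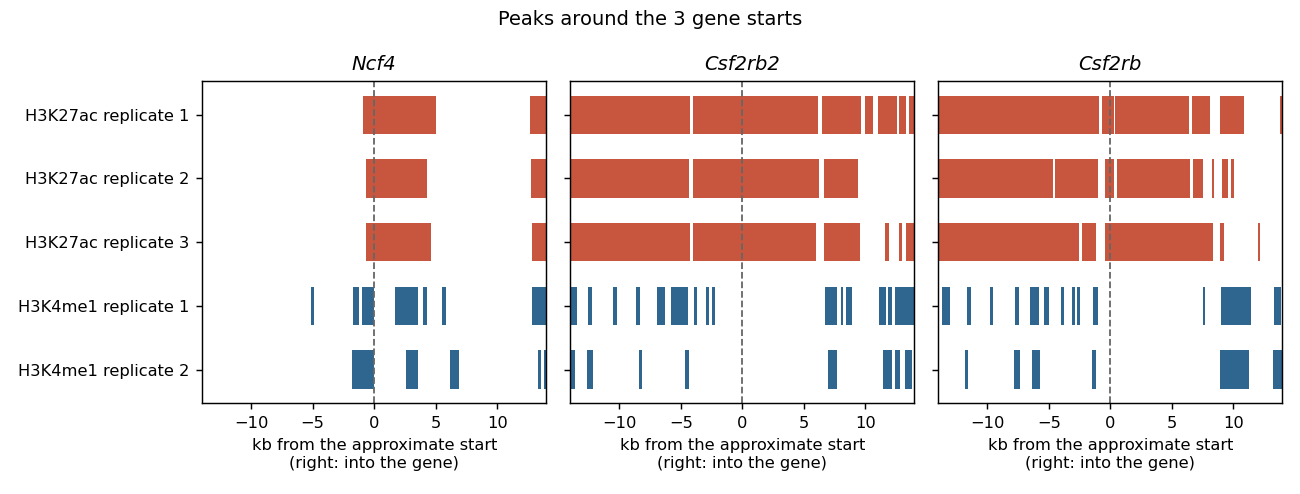
Peaks of each list within 14 kb of the approximate start of each gene, as bars from start to end in kb, with the inside of the gene to the right. At Csf2rb2 and Csf2rb the H3K27ac bars run on across the start where the H3K4me1 rows are empty for 8949 and 8549 bp. At Ncf4 the empty stretch is 1642 bp and begins next to the approximate start.

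The highest H3K27ac enrichment of replicate 1 lay inside Ncf4, away from its start. The region from 78087646 to 78090690, 3045 bp, reached 42.4-fold, the 19th highest of 39837 peaks of that list, with 153 tags at the summit. In replicates 2 and 3 it reached 15.5- and 16.7-fold, ranking 1105 and 1558. Summits of the 3 lists lay within 51 bp. H3K4me1 covered 79.6% of the region in the consensus, at up to 9.11-fold in replicate 1 and 6.84-fold in replicate 2.

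The space between Ncf4 and Csf2rb2 held the centres of 7 H3K27ac consensus regions, and H3K27ac consensus covered 94.3% of its 20.0 kb. The H3K27ac region with the best mean rank of the window was here, from 78096725 to 78098393, with 39.7-, 15.1- and 24.0-fold in replicates 1, 2 and 3 and summits within 46 bp. H3K4me1 covered 78.2% of it, at up to 11.3-fold in replicate 1 and 9.04-fold in replicate 2. Its neighbour from 78098583 to 78101769 reached 28.8-, 13.1- and 16.7-fold and had 12.3% H3K4me1 cover.

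Of the other regions between Ncf4 and Csf2rb2, that from 78104018 to 78106255 was lower, with 10.9-, 9.36- and 7.25-fold. The one from 78106356 to 78112573, 6218 bp, reached 24.7-, 13.1- and 15.8-fold and held 5 H3K4me1 consensus regions. In it lay the H3K4me1 regions with the best mean ranks of the window. That from 78108265 to 78109555 reached 13.6-fold in replicate 1 and 8.13-fold in replicate 2, and that from 78107227 to 78108040 ranked 1993 in replicate 1 and reached 8.27-fold in replicate 2. Summits of the H3K4me1 lists agreed within 11 and 14 bp there. The remaining regions here that lacked an H3K4me1 consensus region, at 78093047 to 78094825 and 78101928 to 78103857, had an H3K4me1 peak in 1 list each.

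Inside Csf2rb2, away from its start, the H3K27ac peaks were lower, and of all intervals the replicates differed most here. Cover of the gene was 84.3% in replicate 1, 48.3% in replicate 2 and 59.7% in replicate 3, a mean of 64.1% ± 18.4 (SD, n = 3). Next to the start region, that from 78126327 to 78129518 reached 10.4-, 7.07- and 9.32-fold. The shorter regions between 78112696 and 78119824 ranked no higher than 10809 in any list. H3K4me1 covered 33.9% and 25.5% of the gene, in 8 consensus regions. Of these, the pair at 78121967 to 78124898 lay in a part where H3K27ac replicates 1 and 3 had peaks and replicate 2 had none.

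Downstream of its start region, Csf2rb held H3K4me1 regions with little H3K27ac. H3K27ac covered 38.3%, 30.9% and 32.9% of the gene in replicates 1, 2 and 3, nearly all of it in the first part. The last consensus region, from 78164882 to 78166852, had the lowest mean rank of the window, with 3.12-, 5.93- and 4.19-fold. It was overlaid by an H3K4me1 region of 2521 bp, at 6.45- and 7.66-fold, that covered 97.4% of it. Further on, those at 78169263 to 78170387 and 78178745 to 78179683 overlapped an H3K27ac peak in some lists but no consensus region. The H3K4me1 consensus regions at 78170635 to 78172196 and 78175400 to 78176064 had no H3K27ac peak in any list, with folds of 4.93 and 4.99 in the first and 3.22 and 3.56 in the second.

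Beyond Csf2rb there was 0 H3K27ac in any list, and H3K4me1 covered 2.29% and 3.20% of the interval. It came from 2 consensus regions, at 78198400 to 78198909 and 78199177 to 78199601. The second reached 5.82-fold in replicate 1 and 9.94-fold in replicate 2, where it was the highest H3K4me1 peak of the window. In all, 4 of 35 H3K4me1 consensus regions (11.4%) overlapped no H3K27ac peak of any list, against 61.7% of all. A low share follows from the choice of the window by its H3K27ac cover and is a description only.

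**Figure D3:**
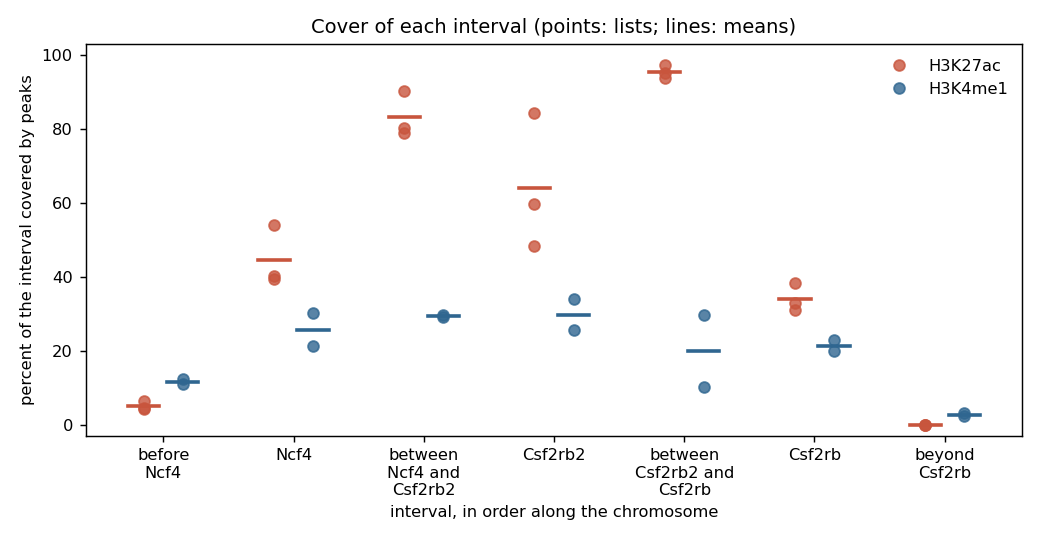
Percent of each interval covered by peaks, in order along the chromosome, with a point for each list and a line for the mean. H3K27ac points lie above H3K4me1 points from Ncf4 to Csf2rb, with the highest, 93.7% to 97.4%, between the facing starts, and below them on both outer sides.

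In the interval between the beta chain genes, the mean H3K27ac cover was 95.4% ± 1.87 (SD, n = 3) and the mean H3K4me1 cover 20.0% ± 13.9 (SD, n = 2). Between Ncf4 and Csf2rb2 it was 83.2% ± 6.25 and 29.4% ± 0.354. Within Ncf4 it was 44.6% ± 8.18 and 25.8% ± 6.29, and before Ncf4 5.11% ± 1.08 and 11.6% ± 0.919. The H3K27ac values of the 2 intervals between genes did not overlap those inside Ncf4 or Csf2rb, but did overlap those inside Csf2rb2. Cover of Csf2rb2 was 84.3% in replicate 1, and that between Ncf4 and Csf2rb2 was 78.9% and 80.4% in replicates 2 and 3. Within each list both intervals between genes had more cover than Csf2rb2. These values describe the lists that chose the window.

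The heights of the peaks ranged widely. By fold within the list, the median percentile was 60.4, 61.6 and 53.3 in the H3K27ac lists and 38.0 and 35.9 in the H3K4me1 lists. In the top 10% of their list were 9 of 35, 10 of 31 and 7 of 31 H3K27ac peaks and 4 of 60 and 1 of 43 H3K4me1 peaks. Median lengths were 1152, 521 and 831 bp for H3K27ac against 493, 487 and 478 bp for the lists, and 397 and 473 bp for H3K4me1 against 356 and 437 bp. In H3K27ac replicates 1 and 3 the median length was above that of the list, and in replicate 2 it was close to it. Peak length enters the H3K27ac cover that chose the window. The H3K27ac lengths and heights are therefore a description only.

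The local background from the input, worked out from the deposited fold and pileup, was somewhat higher here than over the lists. Its median over H3K27ac peaks of the window was 1.99, 2.03 and 1.61 scaled tags, against 1.49, 1.87 and 1.41 over the lists, and for H3K4me1 3.29 and 3.15 against 3.00 and 2.81. It reached 4.74 at the replicate 2 summit between the facing starts and 4.00 at the replicate 3 summit there. A higher background lowers the fold, and its part in the ranks was not tested.

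**Figure D4:**
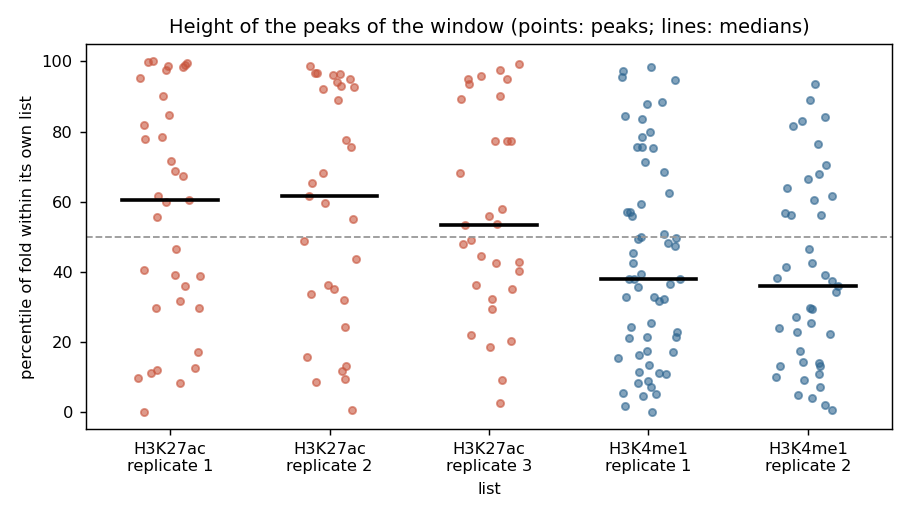
Percentile of each peak of the window by fold within its own list, with a point per peak, spread sideways at random, and a line for the median; the dashed line is the median of a whole list. The H3K27ac medians, 53.3 to 61.6, lie above it and the H3K4me1 medians, 35.9 and 38.0, below. H3K27ac cover chose the window, so this difference between the marks is a description only.

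Stitched across gaps, by the rule used to choose the window, the 18 H3K27ac regions formed a cluster of 92.8 kb from 78074048 to 78166852. The clusters next in order of cover lay on chromosomes 7, 17, 4 and 13 and covered 71.5, 69.9, 58.0 and 57.1 kb, against 73.3 kb here. H3K27ac consensus made up 79.0% of the cluster, against 57.5% to 75.1% of those 4. H3K4me1 peaks, which did not enter the choice, covered 30.2% of it in replicate 1 and 22.1% in replicate 2. In the other 4 the values were 39.8% and 37.7%, 22.7% and 22.6%, 33.2% and 39.9%, and 36.9% and 31.1%. The replicate 2 value was the lowest of the 5, and in replicate 1 the cluster on chromosome 17 was lower.

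Of the H3K27ac bases 29.0% were also H3K4me1 here, against 32.5% to 51.7% in the other 4. Those on chromosomes 7, 17, 4 and 13 held 6, 3, 6 and 2 H3K27ac regions of at least 5000 bp, of which 0 lacked H3K4me1 consensus, while here 2 of 5 did, unless peaks were joined across 1000 bp. By fold, the highest H3K4me1 peak of the cluster ranked 1077 and 6500 in replicates 1 and 2, against 9 to 1011 and 97 to 1120 in the others. By pileup the best H3K4me1 ranks of the window were 752 and 572, and the other clusters were not ranked by pileup. With 2 H3K4me1 lists these differences were not tested.

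**Figure D5:**
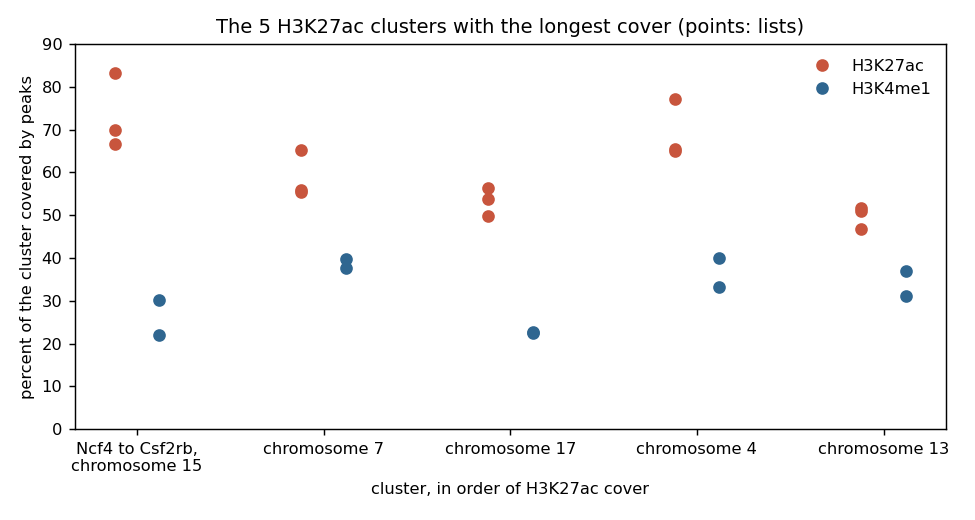
Percent of each of the 5 H3K27ac clusters with the longest cover that peaks of each list covered, with a point per list. In the cluster from Ncf4 to Csf2rb the H3K27ac points, 66.6% to 83.3%, are among the highest, and the H3K4me1 points, 30.2% and 22.1%, are below those on chromosomes 7, 4 and 13.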

How the data were processed

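Peaks were called by the authors with MACS2, each immunoprecipitate against its own input, at a q-value limit of 0.001 with broad calling off and 1 tag kept per position, per the file headers. Version 2.1.1.20160309 made the H3K27ac lists and version 2.0.10.20130306 the H3K4me1 lists, again from the headers, and the build is mm9 per the submitters' processing notes. No source used here names an aligner. The deposited signal is the pileup at the summit, with the larger library scaled to the smaller, and the deposited fold is its ratio to local background. Both are the authors' values, as are the −log10 p and −log10 q values as deposited. Scaling was undone to give tags at the summit, whole within 0.05 in 100% of peaks. Local background was (pileup + 1) / fold − 1. Folds were ranked only within a list. A missing peak means that the limit was not passed.

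Peaks that overlapped or touched were joined. Consensus regions were those shared by all lists of a mark, overlap was at least 1 bp, and clusters joined regions across 12500 bp. Percentages of the chromosomes use the stretch from first to last peak of chromosomes 1 to 19 and X. Regions named were H3K27ac consensus regions of at least 2000 bp, the 5 H3K4me1 regions with the best mean rank, regions without the other mark, and 4 further clusters; other regions were named after their values were seen. The planned permutation test of the Jaccard index is not reported, because shared H3K27ac bases chose the window. Members, lists and rules were chosen with earlier results of these data known. Genes of the IL-3 and oxidase pathways outside the window, and proteins, were not analysed here. Alternatives were stricter q limits, joining across 1000 bp, H3K27ac from 2 lists, a minimum overlap of 0.5 of the smaller region's length, other stitching, pileup ranks and each list left out. Code was tested on simulated regions and against bedtools 2.31.1, which gave the same 7971 overlaps. Python 3.11.15, NumPy 2.4.6, pandas 2.3.3, SciPy 1.17.1 and Matplotlib 3.10.9 were used.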

Additional observations from a re-analysis of the deposited data

How the results depend on the processing

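When only peaks with minus log10 q of 10 or more were kept, H3K4me1 consensus regions fell to 13, H3K27ac regions with H3K4me1 to 6 of 13, H3K27ac cover to 64.3 kb, H3K4me1 cover to 14.1 kb and shared cover to 7.18 kb. With peaks joined across 1000 bp there were 2 H3K27ac regions, both with H3K4me1, covering 85.2 kb, and 19 H3K4me1 regions covering 50.2 kb, with 42.2 kb shared. Leaving out each list gave 19 to 22 H3K27ac regions and 43 to 60 H3K4me1 regions, 14 to 17 H3K27ac regions with H3K4me1, 66.3 to 75.1 kb of H3K27ac, 26.7 to 32.8 kb of H3K4me1 and 16.9 to 23.5 kb shared. The 60 H3K4me1 regions arose without replicate 2. The Jaccard difference was 0.377 to 0.587 over lists left out and 0.486 and 0.525 under stricter q limits. The cluster's cover was 39.3 kb with stitching across 5000 bp, where it ranked 9, and 65.9 to 75.1 kb with lists left out. It ranked 1 without H3K27ac replicate 2, 6 with stitching across 25000 bp, and 2 without replicate 1 or 3 or at the limit of 10. It also ranked 2 under 3 alternatives chosen after the data were seen: a limit of 5, joining across 1000 bp, and regions from 2 lists. By pileup the best ranks were 31, 8 and 572 in H3K27ac replicates 2 and 3 and H3K4me1 replicate 2, against 446, 211 and 3734 by fold. In all, 44 of 64 alternative values stayed close to the main one. Counts and ranks of peaks had to move by less than 1.5 times, and cover by less than the SD between lists. The Jaccard difference had to keep its direction. The cluster was judged by its cover alone, so its changes of rank did not enter. No paired analysis was possible because the replicate numbers of the 2 marks name different immunoprecipitates with their own inputs. The shares over all regions at the limit of 10, and the regions at the starts under joining, were also computed after the data were seen.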

Other observations

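By consensus regions, the cluster lay farther from its H3K27ac neighbours than from its H3K4me1 neighbours. A consensus region needed all 3 lists for H3K27ac and both lists for H3K4me1, so the distances of the marks are not alike. Single lists had nearer H3K27ac peaks, as at 78168013 to 78168213 in replicate 3 and 78169803 to 78170250 in replicate 1. With H3K27ac regions from at least 2 lists the cluster spanned 105 kb, against 92.8 kb. Before the cluster the nearest H3K27ac consensus region was 68.5 kb away and after it 69.8 kb away. The nearest H3K4me1 consensus region wholly outside the cluster was 32.9 kb before it and 2.41 kb after it. These distances were not compared with those of other clusters. The 150 kb before the window held 1 H3K27ac and 6 H3K4me1 consensus regions, covering 0.666 and 5.53 kb, and the 150 kb after it held 5 and 16, covering 7.94 and 19.4 kb. At the edges of the window, the next H3K27ac consensus regions outside lay 54.5 kb before and 26.7 kb after, and the next H3K4me1 regions 18.9 kb before and 26.0 kb after. In the gene order of RefSeq (GRCm38.p6), the protein-coding neighbours are Pvalb, which encodes the calcium-binding protein parvalbumin, on the side of Ncf4, and Tex33 on the side of Csf2rb.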
